A study of Macaca mulatta with 2 samples.

Results

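The 40 genes described here encode ligands, receptors, latent binding proteins, antagonists, SMAD proteins and ID targets of the TGF-beta and BMP pathways. They were chosen by gene symbol from knowledge of these pathways and not by a measured value, although earlier results of these data were known. All 40 were on the array, with 60 of its 41000 probes, and 36 of them had at least 1 probe that passed the filter on dim probes, among 20241 genes that did.

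RNA from Sertoli cells of the rhesus macaque, grown as primary cultures from the testis, was hybridised to 2 human oligonucleotide arrays. Infant donors were males less than 3 months of age. Pubertal donors were juvenile males, 18 to 22 months old by the labels, in which puberty was brought on with GnRH pulses through a catheter over 4 to 5 weeks. A pulse lasted 2 min at 0.15 µg/min and was given once every 3 h. Every culture, infant and pubertal alike, received 100 nM testosterone and 5 ng/ml FSH for 24 h, so neither group shows the genes without hormone. Each array paired 1 pubertal with 1 infant culture, 4 cultures in all. On array 1 the pubertal RNA carried Cy5 and the infant RNA Cy3, and on array 2 the dyes were swapped. The labels call the arrays biological replicates. The GnRH treatment and the age of the animals go together and cannot be told apart.

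TGF-beta and BMP ligands are secreted dimers that bring together a type I and a type II receptor kinase on the cell surface. The type I kinase then phosphorylates receptor SMADs at their C-terminal serines: mainly SMAD2 and SMAD3 for TGF-beta, and SMAD1, SMAD5 and SMAD9 for BMP. The phosphorylated SMADs join SMAD4, enter the nucleus and regulate target genes, of which the ID genes are the standard early targets of BMP and encode helix-loop-helix proteins that block differentiation factors. Sertoli cells, the somatic nurse cells of the seminiferous tubule, respond to several members of this ligand family and also produce some.

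Each measurement rests on a 60-base human probe held against macaque RNA, and some family members have closely related probes. The closest pairs among the members' probes are printed here because they show which readings could be shared between relatives. The SMAD1 probe at chr4:146836638-146836697 (plus strand, build hg17, as the array's own annotation gives it) and the SMAD9 probe at chr13:36320813-36320872 (minus strand) both reach the stop codon of the reading frame. The capitals mark the codons of the C-terminal serine motif phosphorylated by the type I receptor, with the stop codon. Written as TCNTCNGTNTCTTAA, with N where these probes differ, this stretch was searched in all probes.
SMAD1: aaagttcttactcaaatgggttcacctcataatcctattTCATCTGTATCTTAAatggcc
SMAD9: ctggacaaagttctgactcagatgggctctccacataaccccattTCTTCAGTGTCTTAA
Over their 54 aligned bases 44 were identical, or 81.5%. Read on both strands, the stretch was in 3 of the 41000 probes on the array (0.00732%). The 2 members shown are among those 3 by construction, because the stretch was written from their probes. The type I BMP receptors gave the other close pair. The BMPR1A probe joins exons between chr10:88671406-88673145 and the BMPR1B probe joins exons between chr4:96427216-96430994, both on the plus strand of hg17, and here the capitals mark bases that differ between them.
BMPR1A: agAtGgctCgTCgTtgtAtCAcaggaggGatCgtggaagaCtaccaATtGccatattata
BMPR1B: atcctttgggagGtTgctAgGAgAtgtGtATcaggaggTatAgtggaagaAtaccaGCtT
Of 50 aligned bases 35 were identical, or 70.0%. No other pair of probes to different members exceeded 55.0% among 1743 pairs. Whether RNA of one relative bound the probe of the other was not tested. The 60 probes lay on 17 chromosomes, 11 of them joined exons, and their GC content ran from 31.67% to 68.33% with a median of 45%.

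Values are log2 ratios of pubertal over infant, turned the same way on both arrays, and log2 normalized intensities of each culture. An error given with ± is the moderated standard error of limma, the linear model fitted across all 20241 genes (n = 2 arrays, 1 residual degree of freedom per gene). No spot of a member's probes was saturated. Across all genes the share of spots well above background was 60.91% to 74.79% per channel, and Cy5 channels were brighter than Cy3 channels on both arrays. The number of arrays limits the precision. The turned ratios of both arrays were nearly unrelated over all genes (Pearson r = -0.06, Spearman rho = -0.10, across genes, which are not independent replicates), so the rate of agreement on sign over all genes is needed to read the counts.

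No member passed limma's test at an adjusted p of 0.05, and neither did any of the 20241 genes, a background of 0%. At an unadjusted p of 0.05, 4.05% of all genes passed and 1 of the 36 members did, namely TGFBR2. The pubertal value was higher on both arrays for 10 of 36 members (27.8%), against 23.4% of all genes. Lower on both were 9 of 36 (25%), against 21.9%. Signs differed between the arrays for the remaining 17 (47.2%), against 54.7%. These shares are near the background. Of the 19 members with 1 sign on both arrays, TGFBR2 and TGFBR3 kept it under all 8 other settings of the processing. The remaining 17 lost it under at least 1, mostly under median centring. The other filters, the mean over probes and leaving out saturated probes did not alter the values of TGFBR2 and TGFBR3, so those settings could not change their sign. With plain median centring TGFBR2 was at -0.06 on array 1. The members' median ratio was 0.06, with 0.07 on array 1 and -0.08 on array 2, and over all genes it was 0.01, with 0.05 and -0.03.

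A fold of 2 or more on both arrays, in either direction, was reached by 0 members, against 0.341% of all genes in each direction. On at least 1 array a fold of 2 was reached by 7 members (19.4%), against 10.3% of all genes: GDF15, TGFB3, TGFBR3, LTBP2, SMAD1, SMAD3 and ID2. In each of these 7 the large value was on 1 array and a smaller or opposite one on the other, except LTBP2, which was close to 2-fold in both directions. In terms of single cultures, 8 members had both pubertal cultures above both infant cultures (15.8% of all genes) and 6 had both below (14.2%).

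**Figure D1:**
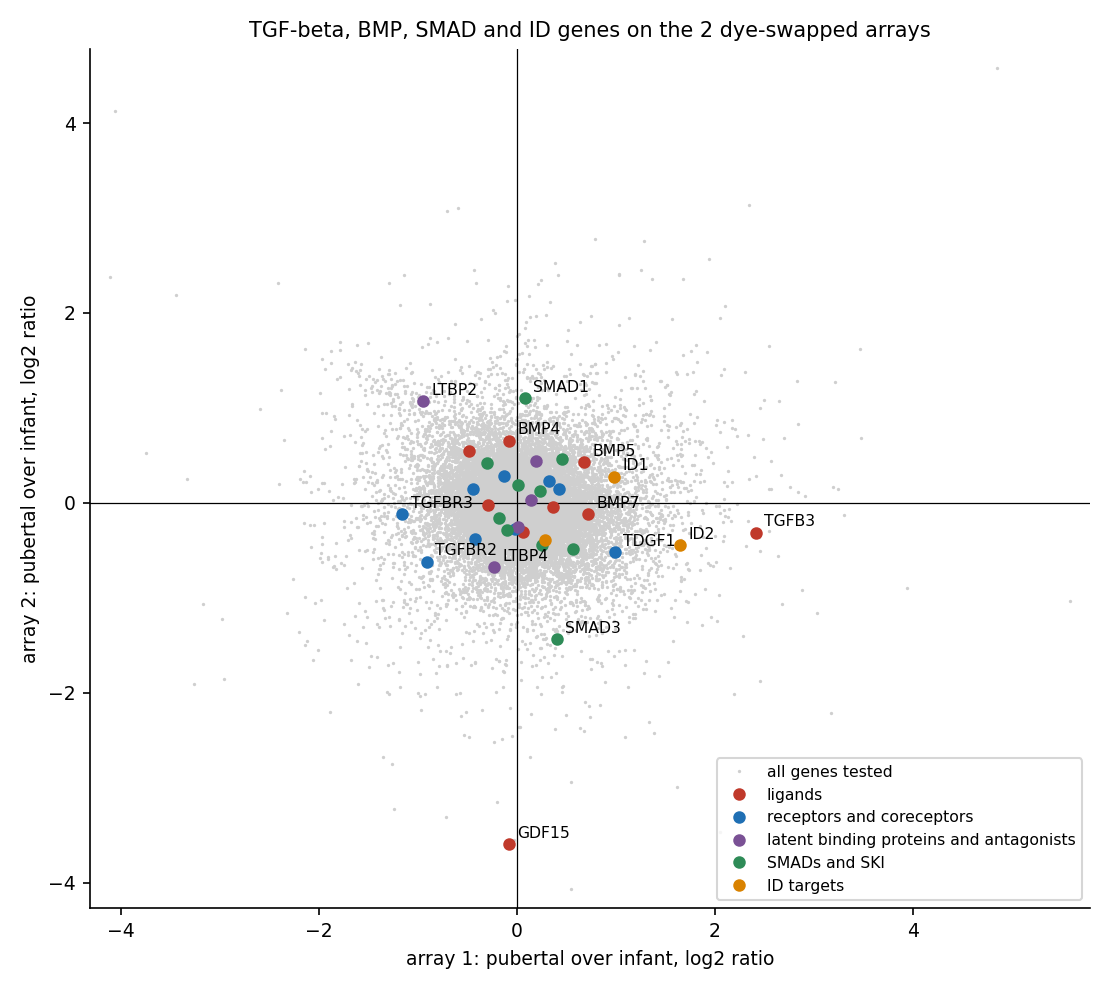
Log2 ratio of pubertal over infant on array 1 (x axis) and array 2 (y axis) for the 36 members, coloured by role, with all kept genes in grey. Members in the upper right corner (10) and the lower left corner (9) had 1 sign on both arrays, and GDF15 at -3.60 on array 2 and TGFB3 at 2.42 on array 1 lie far from the others on a single axis.

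Among the ligands, 9 of 11 genes were measured, of which 1 was higher on both arrays, 2 were lower on both and 6 had opposite signs. Over all genes the shares were 23.4%, 21.9% and 54.7%. The ligand with the largest ratio of any member was GDF15, a distant family member released by stressed cells. Its level was 10.87 and 10.94 in the pubertal cultures and 10.95 in the infant culture of array 1, but 14.54 in the infant culture of array 2. Thus 3 of the 4 cultures were alike, and 1 infant culture stood apart from them. The ratio was -0.08 on array 1 and -3.60 on array 2, a 12.1-fold lower pubertal value there and the lowest but 1 of all 20241 genes on that array (mean -1.84 ± 0.83, adjusted p = 1 by limma).

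TGFB3, a TGF-beta isoform found in the seminiferous tubule, had the opposite arrangement. Its level was 11.05 in the pubertal culture of array 1, 9.21 in that of array 2, and 8.63 and 9.52 in the infant cultures. The pubertal culture of array 1 was above the other 3, and the groups overlapped. The ratio was 2.42 on array 1, a 5.34-fold difference that ranked 35 from the highest, and -0.31 on array 2 (mean 1.05 ± 0.66). A second TGFB3 probe, joining exons within chr14:75499576-75501735, gave 1.25 and 0.12, so that the sign on array 2 was not the same for both probes.

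The other TGF-beta isoforms had smaller ratios. TGFB1 was at 8.95 and 8.46 in the pubertal and 8.59 and 8.50 in the infant cultures, with ratios of 0.36 and -0.04. TGFB2 was at 6.65 and 7.60 in the pubertal and 7.13 and 7.06 in the infant cultures, which gave -0.48 and 0.55. The pubertal values of TGFB2 lay on either side of the infant ones.

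BMP5 was the single ligand with a higher pubertal value on both arrays. Its level was 7.10 and 6.83 in the pubertal and 6.42 and 6.40 in the infant cultures, so the groups did not overlap. The ratios were 0.68 and 0.43 (mean 0.55 ± 0.25, adjusted p = 1 by limma). The probe passed the filter only through the pubertal group: it was well above background in both pubertal cultures and in 1 of 2 infant cultures, and its ratios were 3.77 and 1.29 with the scanner's own processed signals.

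BMP4, which acts on germ cells and their precursors, was at 6.55 and 7.05 in the pubertal and 6.63 and 6.39 in the infant cultures, with ratios of -0.08 and 0.66. BMP2 was at 6.46 and 6.32 against 6.40 and 6.63, with ratios of 0.06 and -0.30, and was well above background in 1 of 2 pubertal cultures. BMP7 gave 0.72 and -0.12. GDF5 was slightly lower on both arrays, at -0.29 and -0.03. Not measured above the filter were BMP6, NODAL and the antagonists NOG and CHRDL1, each well above background in at most 1 culture of either group.

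**Figure D2:**
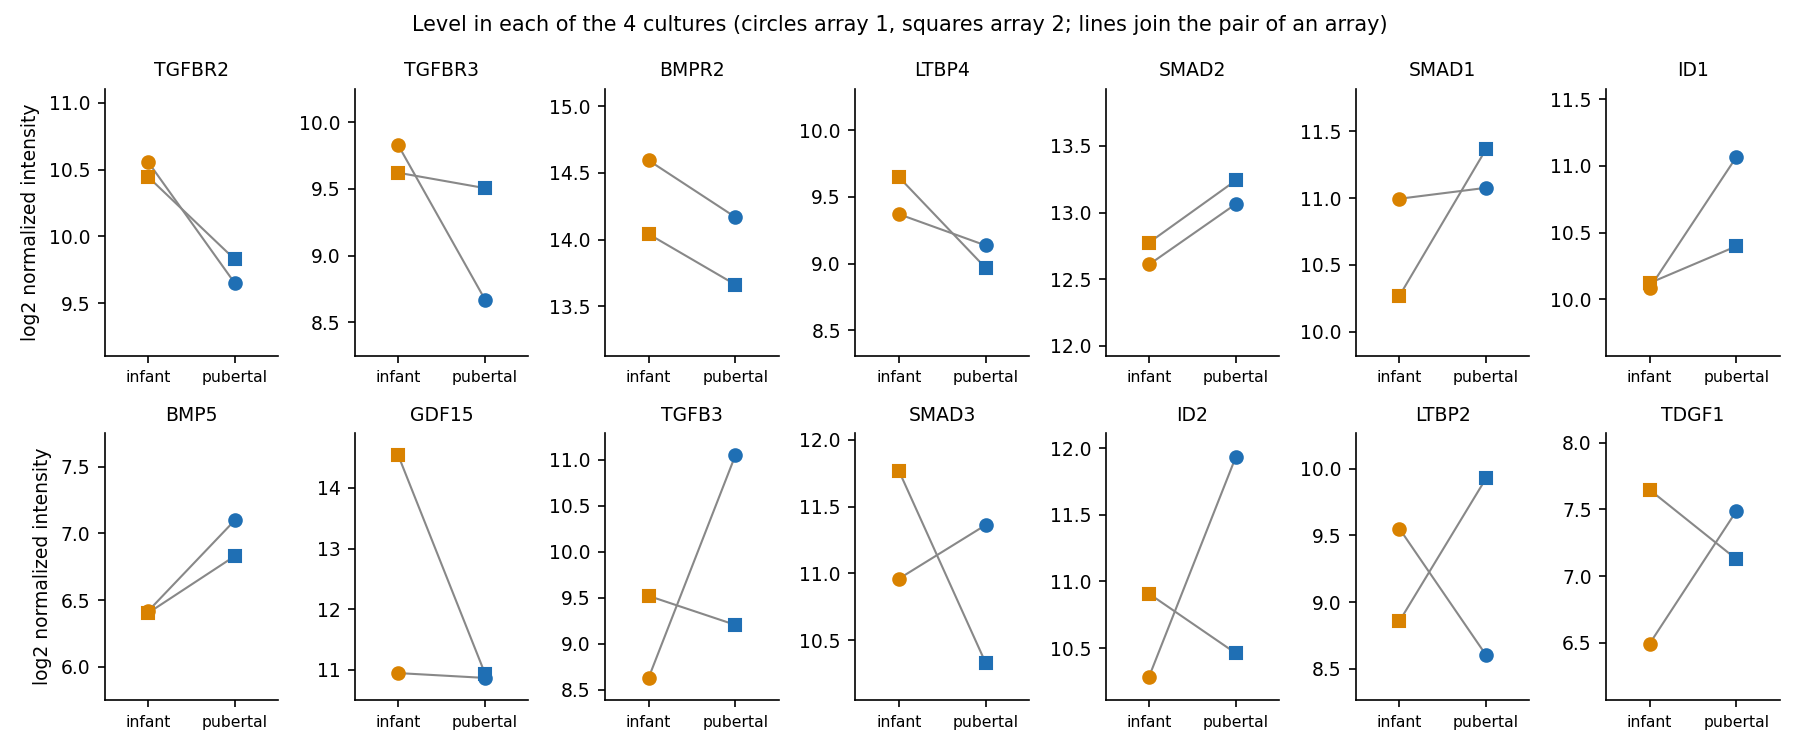
Log2 normalized intensity of 14 of the members in each of the 4 cultures, with pubertal and infant cultures of arrays 1 and 2 as separate points. TGFBR2 has both infant points above both pubertal points, whereas GDF15 and TGFB3 have 1 point away from the other 3. Levels are comparable within a gene and not between genes.

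All 9 receptor and coreceptor genes were measured, with 2 higher on both arrays, 4 lower on both and 3 of opposite signs, beside 23.4%, 21.9% and 54.7% of all genes. TGFBR2, the type II receptor that binds TGF-beta and activates the type I kinase, was at 9.65 and 9.83 in the pubertal cultures and at 10.56 and 10.45 in the infant cultures. Both pubertal values were below both infant values, and replicates within each group differed by less than the groups did. The ratios were -0.91 and -0.62, a pubertal level 1.70-fold lower on average (mean -0.76 ± 0.25, unadjusted p = 0.0275, adjusted p = 1 by limma). Its probe lies at chr3:30710167-30710226 on hg17. A second TGFBR2 probe was well above background in only 1 culture of each group and was not used.

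TGFBR3, or betaglycan, a coreceptor that presents TGFB2 to the signalling receptors and also binds inhibin, was at 8.67 and 9.51 in the pubertal and 9.83 and 9.62 in the infant cultures. The pubertal values were again below both infant values, although on array 2 by little. The ratios were -1.16 and -0.12 (mean -0.64 ± 0.33, adjusted p = 1 by limma). TGFBR1, the type I kinase for TGF-beta, was at 7.09 and 6.97 against 7.12 and 7.24, with ratios of -0.02 and -0.27. ENG, a coreceptor best known from endothelium, had opposite signs at -0.44 and 0.15.

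Of the BMP receptors, BMPR2 was lower and BMPR1A higher in the pubertal cultures on both arrays, although with median centring BMPR2 was at 0.85 on array 1 and BMPR1A at -0.38 on array 2. BMPR2, the type II receptor for BMP, was at 14.17 and 13.66 in the pubertal and 14.59 and 14.04 in the infant cultures. The ratios were -0.43 and -0.38, and its second probe gave -0.54 and -0.22. The levels overlapped across arrays, because both cultures of array 2 were below those of array 1. BMPR1A, a type I receptor for BMP, was at 10.65 and 10.69 in the pubertal and 10.33 and 10.47 in the infant cultures, so its groups did not overlap. Its 3 probes gave 0.32 and 0.23, 0.19 and 0.86, and 0.24 and 0.45, a higher pubertal value in all 6 readings. BMPR1B, its close relative, gave -0.13 and 0.29 and was well above background in 1 of 2 infant cultures.

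BAMBI, a pseudoreceptor that lacks a kinase domain and dampens TGF-beta signals, was at 13.75 and 13.33 in the pubertal and 13.32 and 13.18 in the infant cultures, with ratios of 0.42 and 0.15. TDGF1, a coreceptor for NODAL, gave 0.99 and -0.52, with its second probe at 0.49 and -0.34, and in the infant group it was well above background in 1 of 2 cultures.

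Of the latent binding proteins and antagonists, 5 of 7 were measured, with 2 higher on both arrays (23.4% of all genes), 1 lower on both (21.9%) and 2 of opposite signs (54.7%). The LTBP proteins hold latent TGF-beta in the matrix. LTBP2, which differs from its relatives in not binding latent TGF-beta, was at 8.60 and 9.93 in the pubertal and 9.55 and 8.86 in the infant cultures. The ratios were -0.95 and 1.07, and the lowest and the highest culture were both pubertal. Its 3 other probes had the same arrangement of signs, at -1.32 and 1.14, -0.28 and 0.25, and -0.52 and 0.62. On all 4 probes the sign of the ratio differed between the arrays, and the mean ratio of the brightest was 0.06.

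LTBP1 was at 0.19 and 0.44 and LTBP3 at 0.15 and 0.03, the second LTBP3 probe being -0.12 on array 2. LTBP4 was lower on both arrays, at -0.23 and -0.68 (mean -0.46 ± 0.26), and its second probe gave -0.11 and -0.14. CHRD, a secreted BMP trap, was at 0.02 and -0.25.

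**Figure D3:**
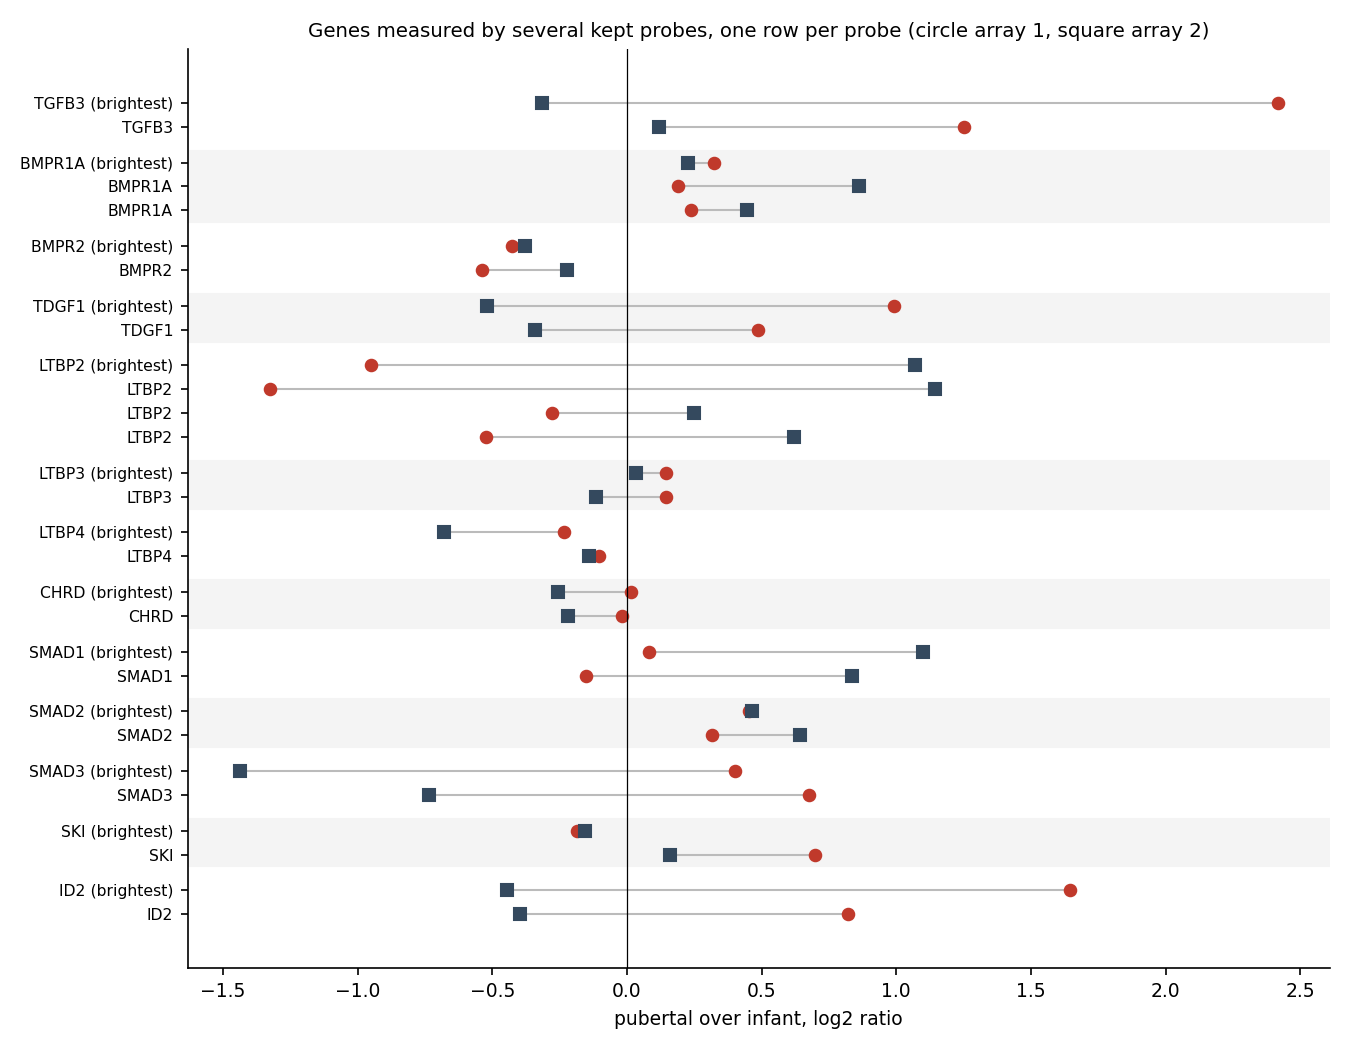
Log2 ratio of pubertal over infant for each kept probe of the 13 members with several kept probes, with array 1 and array 2 as separate symbols. The 4 LTBP2 probes all fall below 0 on array 1 and above 0 on array 2, and the 3 BMPR1A probes lie above 0 on both.

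All 10 genes of SMADs and their repressors were measured: 4 were higher on both arrays (23.4% of all genes), 2 were lower on both (21.9%) and 4 had opposite signs (54.7%). SMAD2, a receptor SMAD of the TGF-beta branch, was at 13.06 and 13.24 in the pubertal and 12.61 and 12.77 in the infant cultures. The groups did not overlap, and the ratios of 0.45 and 0.47 were the closest to each other among the higher members (mean 0.46 ± 0.24, adjusted p = 1 by limma). A second SMAD2 probe gave 0.31 and 0.64. Repeat spots of the first probe within an array had an SD of 0.04 on array 1 (7 spots) and 0.08 on array 2 (8 spots).

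SMAD3, the partner of SMAD2 in the same branch, had opposite signs. It was at 11.36 and 10.33 in the pubertal and 10.96 and 11.77 in the infant cultures, so the groups overlapped. The ratios were 0.40 and -1.44 (mean -0.52 ± 0.48), and a second probe gave 0.67 and -0.73. On the 10 repeat spots of each array the SD was 0.11 and 0.09. The difference between the arrays was therefore many times the spread between repeat spots, which measures the hybridisation and not the cultures. SMAD4, the common partner, had the same signs with 0.26 (SD 0.16 over 10 spots) and -0.45 (SD 0.07 over 10 spots).

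The BMP branch had no single direction either. SMAD1 was at 11.08 and 11.37 in the pubertal and 10.99 and 10.27 in the infant cultures, which did not overlap. The ratios were 0.08 and 1.10 (mean 0.59 ± 0.33, adjusted p = 1 by limma). The second SMAD1 probe, the one printed above, gave -0.15 and 0.84, so the sign on array 1 depended on the probe. SMAD9 was at 7.84 and 7.63 in the pubertal and 7.61 and 7.51 in the infant cultures, with ratios of 0.23 and 0.12. SMAD5 was at 8.37 and 8.61 against 8.67 and 8.18, with ratios of -0.30 and 0.42.

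The inhibitory SMADs, themselves induced by the pathway, were close to 0 or of opposite signs. SMAD7 was at 9.42 and 8.66 in the pubertal and 8.85 and 9.15 in the infant cultures, with ratios of 0.57 and -0.49. SMAD6 was at 6.59 and 6.54 against 6.58 and 6.36, with ratios of 0.01 and 0.18. The repressors SKI and SKIL, which hold SMAD complexes inactive, were slightly lower on both arrays, SKI at -0.18 and -0.16 and SKIL at -0.10 and -0.28. The second SKI probe had the other sign at 0.70 and 0.16.

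**Figure D4:**
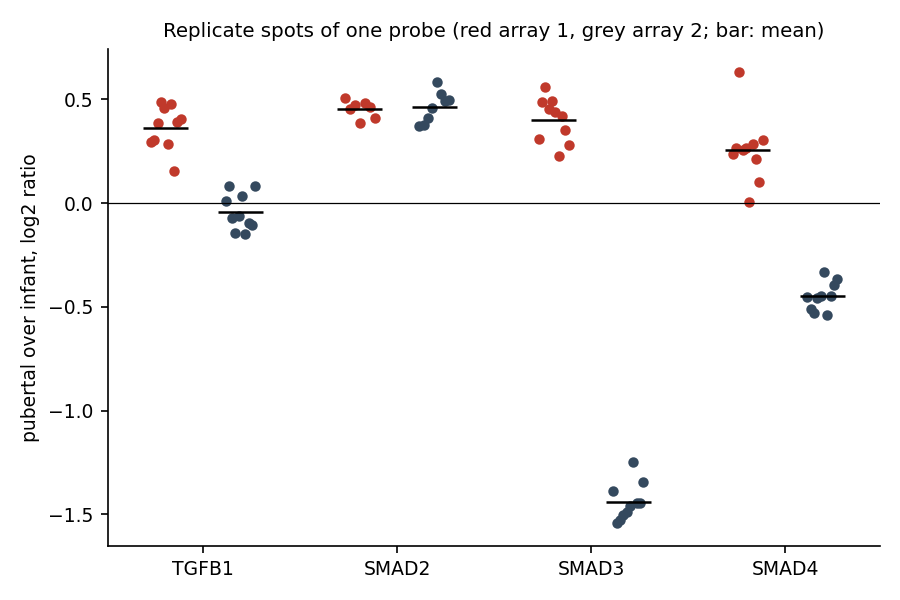
Log2 ratio of pubertal over infant for each repeat spot of the TGFB1, SMAD2, SMAD3 and SMAD4 probes on both arrays. SMAD2 spots of array 1 and array 2 overlap (means 0.45 and 0.47), whereas all SMAD3 spots of array 2 lie at or below -1.25 and all of array 1 at or above 0.23.

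The ID genes are the BMP targets among the members, and BMP signalling itself was not measured. ID1 was at 11.07 and 10.40 in the pubertal and 10.09 and 10.12 in the infant cultures. Both pubertal cultures were above both infant ones, and the infant cultures were nearly equal. The ratios were 0.98 and 0.28 (mean 0.63 ± 0.29, adjusted p = 1 by limma). ID2 was at 11.93 and 10.46 in the pubertal and 10.29 and 10.91 in the infant cultures. Its ratio was 1.65 on array 1, a 3.13-fold difference, and -0.45 on array 2 (mean 0.60), and a second probe gave 0.82 and -0.40. ID3 was at 8.48 and 8.18 against 8.19 and 8.57, with ratios of 0.29 and -0.39. On array 1 the pubertal value was the higher one for all 3 ID genes, and on array 2 for ID1 alone.

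Of the 17 members with opposite signs, 11 were higher in the pubertal culture on array 1 and lower on array 2 (31.4% of all genes), and 6 were the reverse (23.3%). In the first arrangement the ratio favoured the Cy5 channel on both arrays. Dye and culture cannot be told apart for these genes with 2 arrays.

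Other genes of the same pathways were read from a list that left out the members. Of 63 listed, 58 were on the array and 43 were measured, of which 9 were higher on both arrays, 11 were lower on both and 23 had opposite signs (23.4%, 21.9% and 54.7% of all genes). Their median ratio was 0.00, against 0.01 over all genes, and limma called 0 of them at an adjusted p of 0.05 and 2 at an unadjusted one. The higher genes with a mean of at least 0.5 were CHRDL2, a BMP-binding relative of CHRD (0.36 and 0.83), LRRC32, which anchors latent TGF-beta at the cell surface (0.39 and 0.63), and TOB1, an antiproliferative protein that binds SMADs (1.04 and 0.28). The lower ones were DCN, a matrix proteoglycan that binds TGF-beta (-1.97 and -0.43), ZFYVE9, which brings SMAD2 and SMAD3 to the receptor (-0.43 and -1.08), and FBN2, a fibrillin to which LTBP proteins attach (-0.38 and -0.91).

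Of the genes that TGF-beta is known to induce, 21 were on the array and all 21 were measured: 2 were higher on both arrays, 6 were lower on both and 13 had opposite signs, against 23.4%, 21.9% and 54.7% of all genes. The list's median was -0.08, with -0.63 on array 1 and -0.03 on array 2. SNAI2, a mesenchymal transcription factor, was lower at -1.16 and -1.09. The collagen gene COL1A2 was at -0.69 and -0.74 and the protease inhibitor TIMP1 at -0.71 and -0.61. Higher were TGFBI, a matrix adhesion protein, at 0.40 and 0.85, and TIMP3 at 0.88 and 0.25. Also named after their values were seen are TMEPAI at 1.93 and -0.63 and CTGF at -0.70 and 1.73. Both had opposite signs on the arrays, and on each array the sign of one was the reverse of the other's.

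Genes induced by BMP, besides the members, were 14 measured of 20 on the array, with 2 higher on both arrays, 3 lower on both and 9 of opposite signs (23.4%, 21.9% and 54.7% of all genes). ID4, the fourth ID gene, was higher at 1.01 and 0.69 (mean 0.85 ± 0.25, adjusted p = 1 by limma). TBX2, a T-box repressor, was lower at -0.54 and -1.63.

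**Figure D5:**
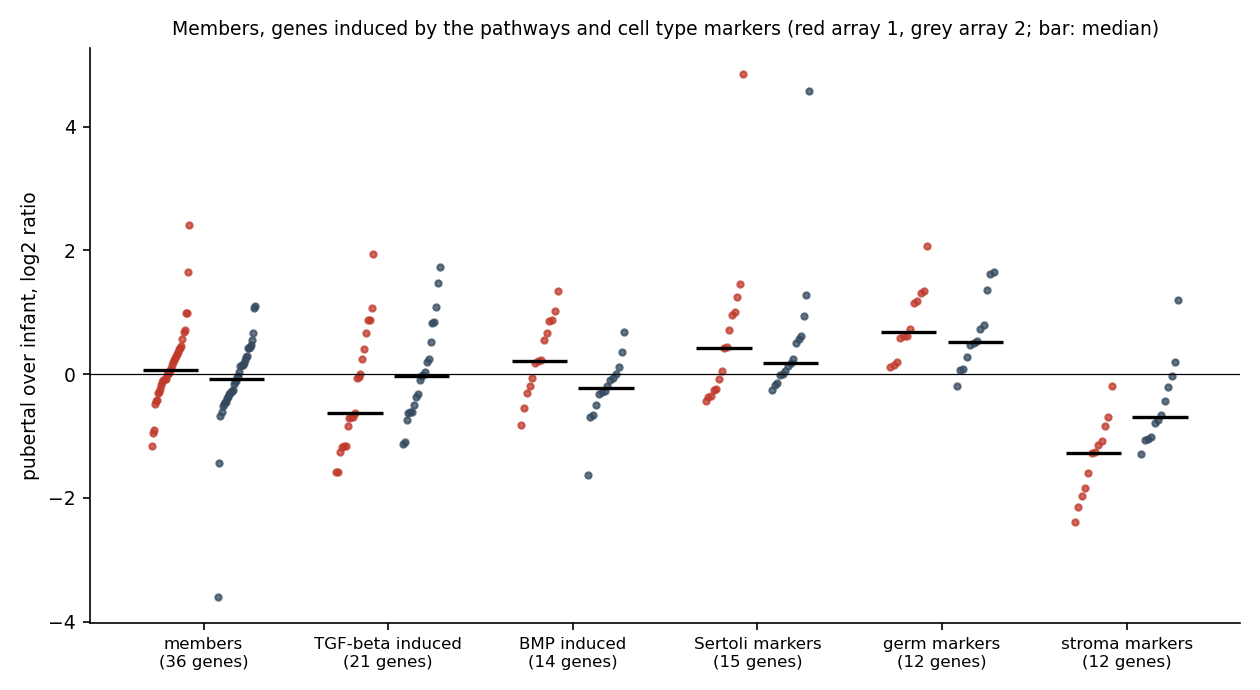
Log2 ratios of pubertal over infant on each array, with the median of each list. Shown are the measured members, the TGF-beta and BMP induced genes, and the Sertoli, germ cell and stroma markers. The stroma markers have medians of -1.27 and -0.70 and the germ cell markers 0.67 and 0.52, while the members' medians are 0.07 and -0.08.

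The labelled cell type was checked with marker lists on the same arrays. All 15 Sertoli markers were measured, and their summed normalized intensity on arrays 1 and 2 was 107528 and 94674 in the pubertal and 87712 and 72829 in the infant cultures. Of them 7 were higher on both arrays, 2 were lower on both and 6 had opposite signs (23.4%, 21.9% and 54.7% of all genes). Of 12 stroma markers 10 were lower on both arrays (21.9% of all genes) and 0 were higher (23.4%), with a summed intensity of 37119 and 51235 in the pubertal and 85900 and 76594 in the infant cultures. Of 14 germ cell markers 12 were measured, and 11 were higher on both arrays and 0 lower (23.4% and 21.9% of all genes). The sums were 3434 and 2910 in the pubertal and 1724 and 1667 in the infant cultures. The filter keeps a gene that is well above background in 1 group alone, which favours dim genes that are higher in that group. How many germ cell markers passed in that way is not given here. Leydig (6 of 7 measured), myoid (6 of 6) and macrophage (6 of 6) markers had 1 higher and 1 lower, 2 and 2, and 2 and 1 on both arrays. The Leydig sums were 132449 and 156580 in the pubertal and 126309 and 81601 in the infant cultures. The myoid sums were 14373 and 35549 against 9979 and 48458, and the macrophage sums 1422 and 979 against 776 and 933. Of the endothelial markers, CDH5, KDR and TEK did not pass the filter and 2 of 5 were measured. DCN, COL1A2 and some other induced or matrix genes are also on the stroma list. The stroma sum was lower in the pubertal cultures, as were TGFBR2 and TGFBR3. DCN and COL1A2 were lower too but are themselves part of that sum. The Sertoli, germ cell, Leydig and macrophage sums were higher on both arrays. The Leydig sum differed little on array 1 and the macrophage sum differed little on array 2. ID1, ID4 and SMAD2 were also higher, but with plain median centring ID1 was at -0.31 and SMAD2 at -0.29 on array 2. The genes set beside these sums are examples, and other members also had 1 sign on both arrays. The part of these cell types in the results was not tested. In cultures measured as a whole, fewer cells of a type and less RNA per cell cannot be told apart.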

How the data were processed

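Per the labels and file headers, 2 arrays of Agilent design 014850 (human, 43376 spots) were scanned in Cy5 and Cy3. The submitters' processing notes name Feature Extraction 9.5.1.1. Each deposited scanner file holds the intensity of every spot, its local background, the scanner's processed signals, quality flags and a log10 ratio, per the file headers. The authors' deposited value table holds log2 ratios for 4848 probes. Against the scanner ratios turned to pubertal over infant its columns had slopes of 1.006 and 1.003 and column medians of -0.37 and 0.12, and how it was filtered and centred is not stated.

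From the spot intensities, background was corrected by normexp (offset 50) and dyes were balanced by loess in limma 3.58.1 (R 4.3.3). Outlier spots and control spots were left out, spots of a probe were averaged, and Aquantile scaling gave each culture's level. A probe was kept where both pubertal channels, or both infant channels, were well above background, and the brightest such probe stood for a gene. Ratios were tested with lmFit and eBayes over 20241 genes with Benjamini-Hochberg adjustment. The code of this step was also run on simulated ratios with the same spread for every gene and no dye effect. These arrays differ from that setting, so the run checks the code and not the results here.

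The members, the gene lists and the rules were chosen with earlier results of these data known. Named in full were members with 1 sign on both arrays and a mean of at least 0.5, those reaching a log2 ratio of 1 on either array, and the main receptors, ligands, SMADs and ID genes. From the other pathway genes, those with 1 sign and a mean of at least 0.5 were named, and induced genes were named after their values were seen. The values of 1 induced gene are not reported here. Probe coordinates are those of the files (hg17). No p-value adjusted over a list alone was computed. Alternatives were the scanner's processed signals, offset 0, median centring, other filters on dim probes, the mean over a gene's probes, saturated probes left out, an intensity trend in eBayes and each array alone.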

Additional observations from a re-analysis of the deposited data

How the results depend on the processing

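Under the alternatives, limma called 0 of all genes with most settings, 1 with offset 0, with median centring or with the eBayes trend on intensity, and 7 with a median centring in which each array was then set to the median of the kept genes, a setting chosen after seeing the data. At an unadjusted p of 0.05 it called 819 of 20241 genes as reported. Of the same 20241 it called 108 and 385 with the median centrings, and at most 1221, with the scanner's processed signals. Without the filter it called 1388 of 32599 genes. No member passed under any setting, with lowest adjusted p-values from 0.363 to 1. Plain median centring left the median of all genes at 0.62 on array 1 and -0.41 on array 2. It left 3 of 36 members above 0 on both arrays (10.9% of all genes) and 4 below 0 on both (9.8%). The recentred version left 6 above and 6 below (15.2% of all genes in each direction). With the scanner's processed signals 1 member, BMP5, was at least 2-fold higher on both arrays. Its probe passed the filter only through the pubertal group. The share of all genes at that size was not counted under this setting. On array 2 alone 16 members were higher (46.7% of all genes) and 20 lower (53.3%). On array 1 alone 21 were higher (54.8%) and 15 lower (45.2%). These shares are near the background. A single array gave 2 members at least 2-fold higher and 1 to 2 at least 2-fold lower, and the share over all genes was not counted. Among members with 1 sign on both arrays the mean ratio changed sign for SKI (0.13 with the mean over its probes) and SMAD6 (-0.024 with recentred median centring). Among those with opposite signs, and with both arrays used, it did so for TGFB2 (-0.024 with offset 0, -0.060 and -0.16 with the centrings). It also did so for BMPR1B (-0.073 and -0.18 with the centrings), SMAD4 (0.015 with plain median centring) and ID3 (0.015 with the same). With a single array the sign was the other one for 7 members on array 2 and 10 on array 1, all of them members with opposite signs. Of the 19 members with 1 sign on both arrays, only TGFBR2 and TGFBR3 kept it under all 8 settings. Several of these settings left the values of both genes unchanged, and TGFBR2 was at -0.06 on array 1 with plain median centring. SMAD2, ID1, BMPR1A, LTBP1, LTBP4 and SKIL lost it under plain median centring alone, SMAD1 when probes were averaged, and BMP5 under recentred median centring. GDF15, BMPR2, TGFBR1, BAMBI, SMAD6 and SMAD9 lost it under both centrings, and GDF5, SKI and LTBP3 under 2 to 4 settings. The cause was not tested. The reported fit is on the ratios within arrays and is thus already paired. Beyond that fit, no paired analysis was possible because the labels give 1 group of ratios and no other block. No limma count exists for a single array.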

Other observations

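The authors' deposited table lists 13 of the members through 16 probes. In it GDF15 was at -0.11 and -3.68, TGFB3 at 2.63 and -0.31, and ID1 at 1.06 and 0.28, on the scale of pubertal over infant. BMP5 has no value for array 1 there and 1.30 for array 2.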
